A study of Homo sapiens with 24 samples.

Results

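The integrated stress response (ISR) genes described here are 43 genes of the 37416 in the deposited tables, chosen by name as ISR regulators and known or proposed targets of the transcription factor ATF4. Their RNA was read in BT549, HCC1806, MDAMB231 and MDAMB468, established human lines from breast tumours that the series calls triple-negative. Cells of each line received, by lentivirus, a hairpin directed at ADAR1 (the shADAR1 arm) or one with no target (the shNT arm). Each arm had 3 libraries labelled as biological replicates, 24 libraries in all. Infection lasted 24 h with protamine sulfate at 10 µg/ml, and 72 h of puromycin at 2 µg/ml followed in both arms. Both arms of a line therefore share virus, drug and medium. That medium, DMEM with 10% serum, was supplemented with non-essential amino acids, glutamine and pyruvate. How many hairpins were used, and their sequences, is not given in the sources used here. Each line is a single established line, and the p-values measure the spread between these cultures only.

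The ISR is the pathway by which cells slow protein synthesis under stress. Kinases that sense different stresses phosphorylate the translation factor eIF2 on its alpha subunit, which lowers general translation but raises translation of a few mRNAs, ATF4 among them. The ATF4 protein, often paired with a C/EBP family protein, then activates genes for amino acid synthesis, amino acid uptake, tRNA charging and feedback. Because ATF4 is controlled largely at translation, its mRNA level need not follow its protein. ADAR1, encoded by ADAR, converts adenosine to inosine in double-stranded RNA, and PKR, one of the eIF2alpha kinases, is activated by double-stranded RNA.

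Total counts ran from 10370645 to 97218217 per library. ADAR itself fell in each line, by between 1.43 (MDAMB468) and 2.19 (MDAMB231) on the log2 scale. Its adjusted p-values were between 6.83e-09 and 3.18e-05 (edgeR's quasi-likelihood F test, Benjamini-Hochberg adjusted over the 21352 genes tested). Epithelial markers summed to at most 1.51 CPM (counts scaled to the library total, with TMM factors) in BT549. They summed to at least 3132 CPM in HCC1806 and 3336 CPM in MDAMB468. In MDAMB231 the sum was 646 to 835 CPM, mostly from KRT8 and KRT18. CDH1, KRT5 and KRT14 were under 1 CPM there and EPCAM at 6.49 to 10.9 CPM. Mesenchymal markers summed to 4606 to 6041 CPM in MDAMB231, 4191 to 5767 CPM in BT549 and 77.6 to 341 CPM in HCC1806. ESR1, the oestrogen receptor gene, was at 18.01 to 26.8 CPM in HCC1806, 5.68 to 8.14 CPM in MDAMB468 and under 1 CPM in BT549 and MDAMB231. PGR, the progesterone receptor gene, was under 1 CPM in every library. ERBB2, the HER2 gene, was at 69.8 to 117.8 CPM over all libraries. Of the 3 leukocyte markers PTPRC and CD3E were under 1 CPM in every library, while CD68 was at 78.4 to 99.0 CPM in MDAMB231, 43.3 to 53.1 in HCC1806, 17.2 to 24.1 in BT549 and 1.87 to 2.41 in MDAMB468. The endothelial markers PECAM1 and CDH5 reached 4.89 CPM (MDAMB231) and 2.16 CPM (MDAMB468). HCC1806 replicate 3 stood apart in both arms, with the basal keratin KRT14 at 26.6 and 20.8 CPM against 184 to 213 CPM in the other HCC1806 libraries, so the HCC1806 call and the average count are also given without it. In MDAMB468 the 4 mesenchymal markers summed to 86.2 to 107 CPM under shADAR1 and 48.9 to 68.0 CPM under shNT, and the part of this in MDAMB468 results was not tested.

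Of the 43 genes, 40 had at least 10 counts in every library. The other 3 were CBS, GDF15 and FGF21. All 43 passed the filter on low counts that preceded the tests. Gene positions given below are those of the deposited tables, whose build is not given in the sources used here.

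Averaged over the 4 lines, 10 of the 43 ISR genes were called as changed without a replicate block and 25 with it, by small amounts. The mRNAs of ATF4 and of the eIF2alpha kinases did not pass the test in either fit. Without the block 9 members rose and 1 fell on average at an adjusted p under 0.05 in edgeR. Of all genes tested 1.26% rose and 1.7% fell, 2.96% in either direction. The 9 that rose were DDIT4, SLC6A9, SLC7A1, ASNS, PCK2, CEBPG, CEBPB, MTHFD2 and EIF4EBP1, by 1.13-fold to 1.36-fold, and ALDH18A1 fell to 0.729 of control. The median log2 fold change of the members was 0.144, beside 0.018 for all genes. Of the members 31 of 43 were above 0, as were 55.0% of all genes. The 31 include CBS and FGF21, which were near 0 counts in some groups.

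By a correlation cut-off of 0.1, same-numbered libraries of the arms were read as pairs in BT549, HCC1806 and MDAMB231. In MDAMB468 they also correlated above 0, but the value for number 3, 0.0651, missed the cut-off. The fit with replicate number as a block is therefore given beside the counts it moves. With the block 21 members rose and 4 fell on average, against 7.25% and 5.96% of all genes (13.2% in either direction). A block in those 3 lines only gave 18 members, against 9.55% of all genes, and DESeq2 gave 14, against 4.45%. The 10 members of the unblocked fit were called in all of these fits. Without HCC1806 replicate 3 of both arms the unblocked fit called 12, against 2.8% of all genes, with EIF4EBP1 lost and SESN2, PSPH and SLC1A5 gained. Leaving out 1 library gave between 6 and 13 members, against 2.26% to 3.19% of all genes. The 13 came without HCC1806 shNT replicate 3, where 2.65% of all genes were called.

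**Figure D1:**
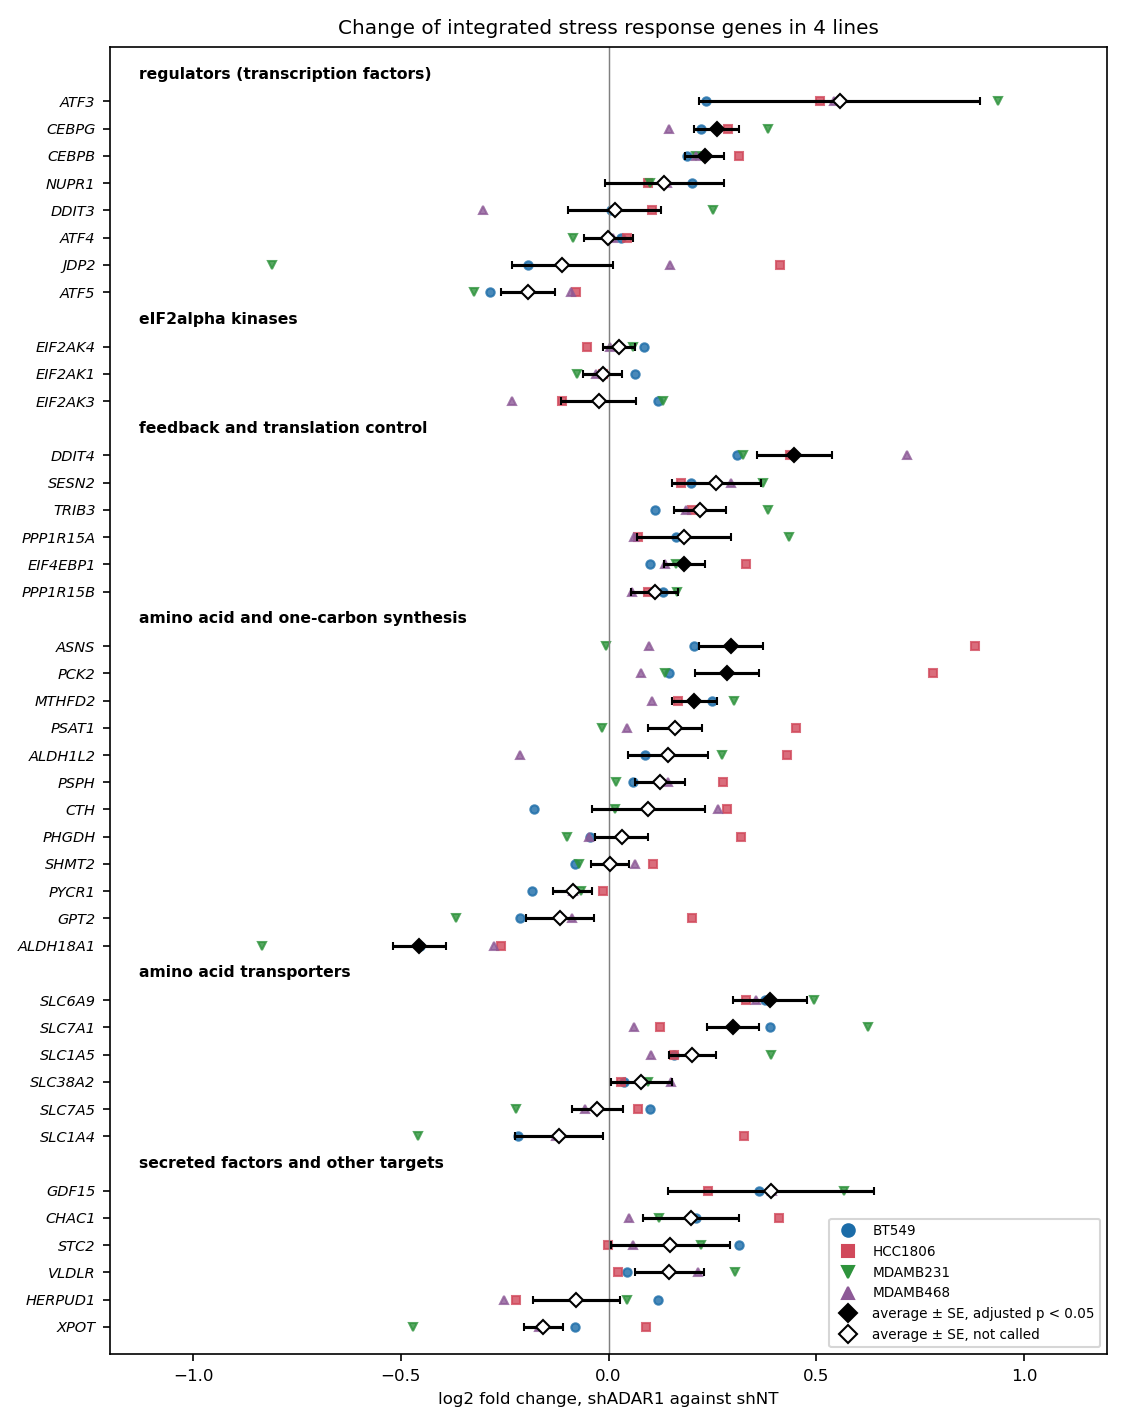
Log2 fold change of shADAR1 against shNT for 41 members (CBS and FGF21, near 0 counts in some groups, are not drawn), grouped by role. Coloured points are the 4 lines and diamonds the average with its standard error, filled where the adjusted p was under 0.05. All 6 feedback and translation control genes lie to the right of 0 in each line, and ALDH18A1 lies to the left in each.

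Among the transcription factors, 2 of 8 rose on average and none fell, beside 1.26% and 1.7% of all genes. The block added ATF3 as higher and ATF5 as lower, where 7.25% and 5.96% of all genes were called. ATF4 mRNA was high and nearly level between arms. In BT549 it was at 251.0, 263.9 and 251.6 CPM under shADAR1 and 250.1, 243.5 and 257.6 CPM under shNT, arms that overlap. Its log2 fold change lay between -0.09 (MDAMB231) and 0.04 (HCC1806) over the lines. The average was -0.0006 with a 95% interval of -0.12 to 0.12. DDIT3, which encodes the pro-apoptotic factor CHOP, had an average of 0.01 (interval -0.22 to 0.25), with -0.30 in MDAMB468 as its lowest line.

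CEBPB, a bZIP factor that partners ATF4, was the one regulator whose arms did not overlap in any line. MDAMB231 had 56.0, 68.7 and 61.8 CPM under shADAR1 against 53.9, 54.8 and 52.7 CPM under shNT. HCC1806 had 159.7, 158.5 and 145.6 against 111.7, 128.1 and 132.9 CPM. These are small steps that recurred in each line, giving an average log2 fold change of 0.23 (SE 0.046, edgeR adjusted p 0.0042). CEBPG, which forms dimers with ATF4 at its target genes, averaged 0.26 (SE 0.055, edgeR adjusted p 0.0068). Its largest change was in MDAMB231, at 55.4, 45.8 and 40.6 CPM against 34.9, 34.8 and 38.6 CPM, where it was not called unblocked (0.38, edgeR adjusted p 0.086) and was called with the block (0.36, adjusted p 0.0071).

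ATF3, an immediate stress-response factor, varied more between replicates than between arms. In MDAMB231 it was at 70.1, 9.44 and 15.9 CPM under shADAR1 and 35.3, 4.45 and 13.0 CPM under shNT, so replicate 1 was high in both arms. MDAMB468 had 185.5, 52.0 and 132.7 against 155.7, 22.1 and 76.6 CPM. Within every same-numbered pair the shADAR1 library was the higher one, in 12 of 12. The average log2 fold change of 0.56 (SE 0.34) was not called without the block (edgeR adjusted p 0.55) and was called with it (0.55, adjusted p 8.84e-06). A block confined to the 3 lines whose numbers were read as pairs did not call it. ATF5, another ATF4-related factor, averaged -0.19 and was called only with a block or DESeq2 (unblocked edgeR adjusted p 0.13, blocked 0.0027). NUPR1, a stress-induced chromatin protein, was not called in any line.

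None of the 3 listed eIF2alpha kinases was called in any line or on average, with edgeR or DESeq2, blocked or not, and 0 of the 3 had an unadjusted p under 0.05. EIF2AK1 (HRI), EIF2AK3 (PERK) and EIF2AK4 (GCN2) averaged -0.01, -0.02 and 0.02. Their 95% intervals ran from -0.21 at the lowest to 0.16 at the highest. EIF2AK2, which encodes PKR and was read from a separate list of eIF2 machinery, averaged -0.005 (interval -0.11 to 0.10). On average none of the 9 genes in that list was called unblocked. At an unadjusted p under 0.05 there were 2, beside 12.8% of all genes. The block called EIF2S2, EIF2S3 and EIF2B3 as higher, beside 7.25% of all genes. These are mRNA levels and say nothing of kinase activity.

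All 6 feedback and translation control genes had positive log2 fold changes in each of the 4 lines. By same-numbered pair they were less uniform: 3 of 6 were higher in HCC1806 pair 3 and 4 of 6 in BT549 pair 3 and MDAMB468 pair 3. In HCC1806 pair 3 SESN2 and PPP1R15A had log2 ratios of -0.24 and -0.21. DDIT4 and EIF4EBP1 rose on average, beside 1.26% of all genes, and with the block all 6 did, beside 7.25%. DDIT4, an inhibitor of mTORC1 signalling, was at 53.2, 54.4 and 69.1 CPM in MDAMB468 under shADAR1 and 35.4, 28.8 and 43.2 CPM under shNT. In BT549 it was at 368.1, 388.0 and 376.2 against 339.3, 308.7 and 265.8 CPM, so those arms do not overlap either. Its arms were also apart in MDAMB231 and overlapped in HCC1806. The average was 0.45 (SE 0.09, edgeR adjusted p 0.0044), a 1.36-fold rise, the largest of the members called.

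EIF4EBP1, a translation repressor released when mTORC1 is inhibited, averaged 0.18 (SE 0.049, edgeR adjusted p 0.042). Its largest log2 fold change was in HCC1806, at 60.4, 55.5 and 62.0 CPM against 44.4, 46.3 and 50.7 CPM. The call is near the threshold and was lost in 20 of 24 fits that left out 1 library and without HCC1806 replicate 3 of both arms. SESN2, which restrains mTORC1 when leucine is scarce, averaged 0.26 without a call (edgeR adjusted p 0.27; blocked 0.27, adjusted p 0.0029). TRIB3, a pseudokinase that damps ATF4 activity, averaged 0.22 (edgeR adjusted p 0.061; blocked 0.23, adjusted p 4.64e-05). PPP1R15A and PPP1R15B, subunits that direct eIF2alpha dephosphorylation, averaged 0.18 and 0.11 and were called only with the block in all lines.

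**Figure D2:**
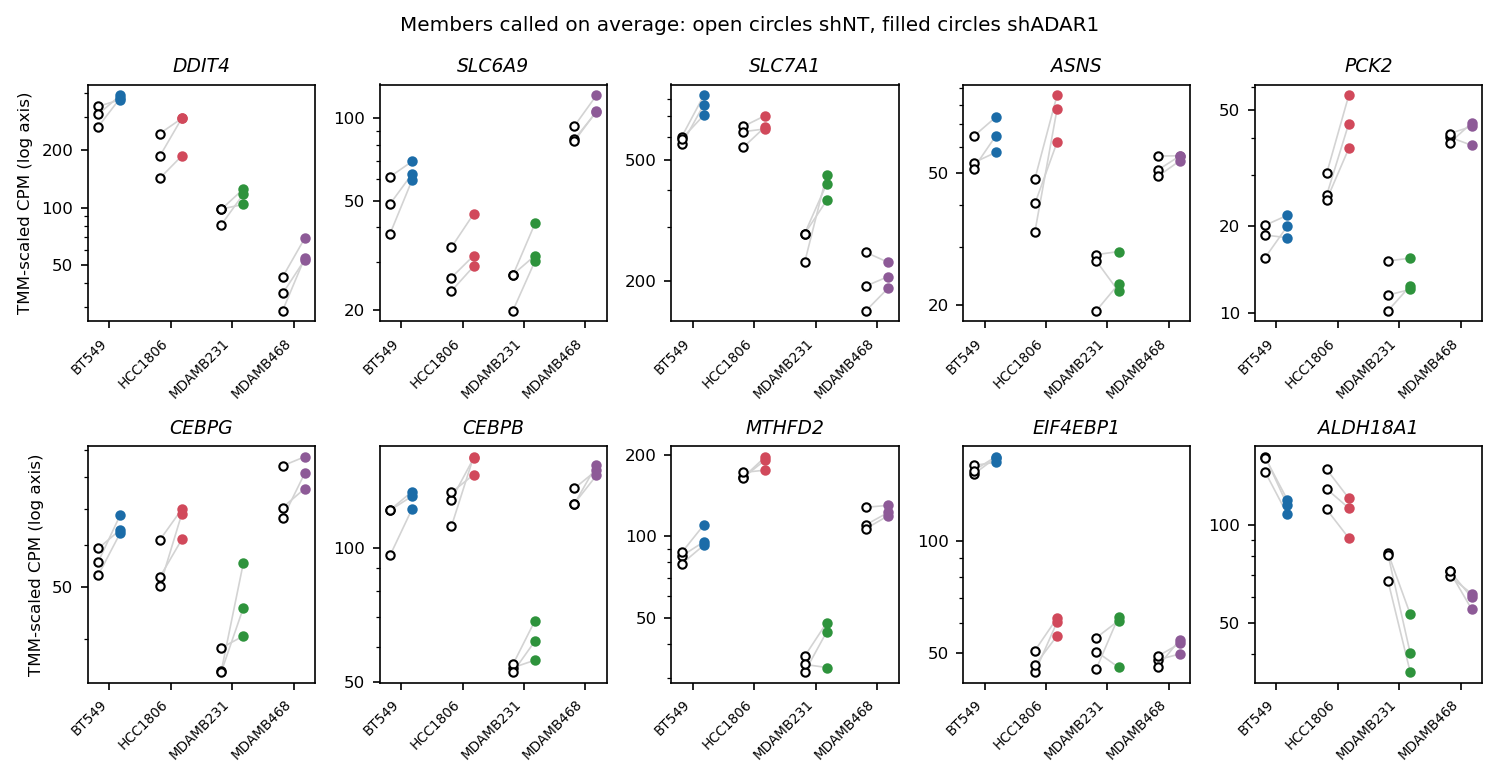
TMM-scaled CPM (log axis) of the 10 members called on average, in each library. Open circles are shNT, filled circles shADAR1, and grey lines join libraries with the same number. The filled circles of DDIT4 and SLC6A9 are above their partners in 12 of 12 pairs and those of ALDH18A1 below in 12 of 12, while ASNS and PCK2 separate most in HCC1806.

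Of the 13 amino acid and one-carbon synthesis genes, 3 rose and 1 fell on average, beside 1.26% and 1.7% of all genes. With the block 5 rose and 2 fell, beside 7.25% and 5.96% of all genes. ASNS makes asparagine and is among the best known ATF4 targets. In HCC1806 it was at 77.8, 61.8 and 85.6 CPM under shADAR1 and 33.3, 40.5 and 48.0 CPM under shNT, arms that lie well apart. The log2 fold change there was 0.88 (SE 0.15), 1.84-fold, and ASNS was the single member called in HCC1806 (edgeR adjusted p 0.025), where 0.0468% of all genes were called. In MDAMB231 it was at 29.03, 23.2 and 22.1 against 28.4, 19.3 and 27.2 CPM, and the log2 fold change was -0.01 (95% interval -0.33 to 0.32). BT549 gave 0.21 and MDAMB468 0.10.

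PCK2 (chromosome 14, 24094053 to 24110598, plus strand), the mitochondrial enzyme that makes phosphoenolpyruvate, likewise had its largest log2 fold change in HCC1806. That line had 44.97, 36.9 and 56.3 CPM against 25.5, 24.6 and 30.3 CPM, a log2 fold change of 0.78 (SE 0.15) that missed the threshold unblocked (edgeR adjusted p 0.065) and passed it with the block (0.77, adjusted p 2.87e-05). The other lines lay between 0.08 and 0.14. Its average of 0.28 was called (edgeR adjusted p 0.043), as was that of ASNS (0.29, edgeR adjusted p 0.035). MTHFD2 (chromosome 2, 74198562 to 74217565, plus strand), a mitochondrial folate enzyme, was more even over the lines, from 0.11 in MDAMB468 to 0.30 in MDAMB231, and averaged 0.21 (SE 0.054, edgeR adjusted p 0.038). These 3 average calls were lost in 15 (ASNS), 16 (PCK2) and 17 (MTHFD2) of the 24 fits that left out 1 library.

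The serine synthesis enzymes PHGDH, PSAT1 and PSPH also had their highest log2 fold changes in HCC1806. PSAT1 was at 152.2, 109.6 and 146.2 CPM there under shADAR1 and 105.2, 90.9 and 102.6 CPM under shNT. Their HCC1806 log2 fold changes were 0.32, 0.45 and 0.27, each called only with a block (blocked adjusted p 0.0098, 0.0013 and 0.043). In MDAMB231 the same 3 genes gave -0.10, -0.02 and 0.02. Over the role, the median in HCC1806 was 0.275, with 11 of 13 genes above 0, and in MDAMB231 -0.01, with 6 of 13. Of all genes 50.8% and 49.7% were above 0 in those lines. The MDAMB231 count includes CBS, which had at most 2 counts a library there.

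A gene of the proline branch went the other way. ALDH18A1 (chromosome 10, 95605929 to 95656706, minus strand) encodes the enzyme that turns glutamate into the precursor of proline and ornithine. In MDAMB231 it was at 35.3, 53.2 and 40.3 CPM under shADAR1 and 67.0, 81.8 and 80.7 CPM under shNT. BT549 had 115.0, 119.5 and 107.8 against 162.1, 161.1 and 145.4 CPM, and MDAMB468 55.1, 61.4 and 59.9 against 72.1, 69.6 and 72.2 CPM. The arms were apart in those 3 lines and overlapped in HCC1806. It fell by 0.83 on the log2 scale in MDAMB231 (SE 0.13, edgeR adjusted p 0.00044) and by 0.46 on average (SE 0.064, edgeR adjusted p 8.15e-05). It was the member with the smallest average p. PYCR1, which carries out the last step of proline synthesis, averaged -0.09 and was not called in any line.

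GPT2, a mitochondrial alanine transaminase, was 0.20 in HCC1806 and -0.37 in MDAMB231. SHMT2, the mitochondrial serine hydroxymethyltransferase, was within 0.11 of 0 in each line. CTH and CBS form the transsulfuration route to cysteine. CTH was not called, and CBS gave no usable fold in MDAMB231, where all 3 shNT libraries were at 0 counts and the shADAR1 libraries at 1, 2 and 2. CBS reads may be shared with a near-identical copy, so its values are uncertain. ALDH1L2, a mitochondrial folate dehydrogenase, was 0.43 in HCC1806, called with the block (0.44, adjusted p 0.012), and -0.21 in MDAMB468, uncalled.

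Of the 6 amino acid transporters, SLC7A1 and SLC6A9 rose on average, beside 1.26% of all genes. The block added SLC1A5 and SLC38A2, where 7.25% of all genes were called as higher. SLC7A1 carries arginine and other cationic amino acids. It was at 449.1, 419.1 and 369.1 CPM in MDAMB231 under shADAR1 and 229.8, 286.2 and 286.0 CPM under shNT, and at 822.4, 765.7 and 706.8 against 599.3, 565.3 and 589.6 CPM in BT549. The arms were apart in both of these lines and overlapped in HCC1806 and MDAMB468. It rose in MDAMB231 by 0.62 on the log2 scale (SE 0.13, edgeR adjusted p 0.0059) and on average by 0.30 (SE 0.062, edgeR adjusted p 0.0060). In BT549 the value of 0.39 was called with the block only (adjusted p 0.0049).

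SLC6A9 (chromosome 1, 43991500 to 44031467, minus strand), a glycine transporter, had a like value in each line. Its log2 fold change was between 0.33 (HCC1806) and 0.49 (MDAMB231) in every line. In MDAMB468 it was at 105.3, 105.8 and 121.0 CPM against 83.7, 82.4 and 93.5 CPM. The average was 0.39 (SE 0.089, edgeR adjusted p 0.014). SLC1A5, a glutamine and neutral amino acid transporter, was higher in 12 of 12 pairs and missed the unblocked threshold (0.20, edgeR adjusted p 0.051; blocked adjusted p 0.00016). SLC1A4, which carries alanine, serine and cysteine, gave 0.33 in HCC1806 and -0.46 in MDAMB231. SLC7A5, the large neutral amino acid transporter, and SLC38A2, a glutamine transporter, averaged -0.03 and 0.08.

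Among the 7 secreted factors and other targets none was called on average without the block, and DESeq2 called XPOT as lower. At an unadjusted p under 0.05 there was 1, beside 12.8% of all genes. XPOT (chromosome 12, 64404350 to 64451127, plus strand) exports tRNA from the nucleus. It was at 126.7, 145.9 and 131.7 CPM in MDAMB231 against 204.0, 171.4 and 185.7 CPM, arms apart, and fell there by 0.47 on the log2 scale (SE 0.095, edgeR adjusted p 0.0062). HCC1806 gave 0.09. GDF15, a stress-induced hormone, averaged 0.39 (SE 0.25) and was called with the block only (0.40, adjusted p 0.0065). STC2, a secreted glycoprotein, and CHAC1, a glutathione-degrading enzyme, averaged 0.15 and 0.20 and were likewise called only with the block in all lines. That block called 7.25% of all genes as higher on average. The lipoprotein receptor gene VLDLR averaged 0.15 and HERPUD1, a gene of endoplasmic reticulum protein disposal, -0.08, both uncalled. FGF21 had at most 29 counts in any library and could not be compared.

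Line by line, few members passed the unblocked test. BT549 had 0 called in edgeR (5 at an unadjusted p under 0.05, as were 6.42% of all genes), where 0.473% of all genes were called, 0.131% as higher and 0.342% as lower. DESeq2 called 1, ALDH18A1, against 1.15% of all genes. With the block BT549 had 9, against 5.14% of all genes (2.48% higher, 2.66% lower): DDIT4, MTHFD2, SLC7A1, SLC6A9, GDF15 and STC2 as higher and ATF5, ALDH18A1 and GPT2 as lower. The block in 3 lines kept SLC6A9, ALDH18A1 and GDF15, against 2.85% of all genes.

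HCC1806 had ASNS alone unblocked, against 0.0328% of all genes called as higher and 0.0141% as lower, with 10 members and 4.35% of all genes at an unadjusted p under 0.05. DESeq2 added PCK2, against 0.187% of all genes. With the block HCC1806 had 13, 12 higher and ALDH18A1 lower, against 2.1% of all genes (1.47% higher, 0.632% lower). The block in 3 lines called PHGDH, ASNS, PSAT1, PCK2 and CEBPB, against 0.81% of all genes.

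MDAMB231 had 3 called members, SLC7A1 higher and ALDH18A1 and XPOT lower, where 2.01% of all genes were called (0.637% higher, 1.37% lower). At an unadjusted p under 0.05 it had 13 members and 11.7% of all genes. DESeq2 called 5, adding JDP2 and CEBPG, against 3.25% of all genes. The block gave 17 there, 10 higher and 7 lower, against 11.4% of all genes (5.09% higher, 6.33% lower), and the block in 3 lines gave 12, against 8.31%. MDAMB468 had 0 called in edgeR and 0 in DESeq2, with 3 members and 3.76% of all genes at an unadjusted p under 0.05, where 0.0375% (edgeR) and 0.164% (DESeq2) of all genes were called. Its share of all genes called was 1.66% with the block, where 4 members were called, although its numbers were not read as pairs. Leaving out MDAMB231 replicate 1 of either arm ended the calls of SLC7A1 (edgeR adjusted p up to 0.060) and XPOT (up to 0.066). ASNS in HCC1806 was not called without replicate 3 of both arms (log2 fold change 0.93, edgeR adjusted p 0.071), nor in 4 of the 6 fits that left out 1 HCC1806 library (adjusted p up to 0.16).

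Whether the arms overlap can be read without a model. In BT549 13 members were higher in all 3 shADAR1 libraries than in any shNT library and 4 were lower, against 8.24% and 6.43% of all genes. HCC1806 had 11 higher and 0 lower, against 4.38% and 3.2%. MDAMB231 had 10 and 2, against 7.19% and 7.01%, and MDAMB468 had 6 and 1, against 6.69% and 4.3%. CEBPB was among the higher ones in all 4 lines. CBS in MDAMB231 and FGF21 in MDAMB468 were also among them, on at most 2 and 28 counts a library.

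By same-numbered pairs, 6 of the 40 members with at least 10 counts in every library were higher in 12 of 12 pairs, against 2.27% of all such genes: ATF3, CEBPB, CEBPG, DDIT4, SLC1A5 and SLC6A9. ALDH18A1 alone was lower in 12 of 12, against 3.0% of genes. The members' median log2 ratio was above that of all genes in 11 of 12 pairs and ran from -0.01 in MDAMB468 pair 3 to 0.29 in HCC1806 pair 1. In MDAMB468 libraries share a number but were not read as pairs.

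**Figure D3:**
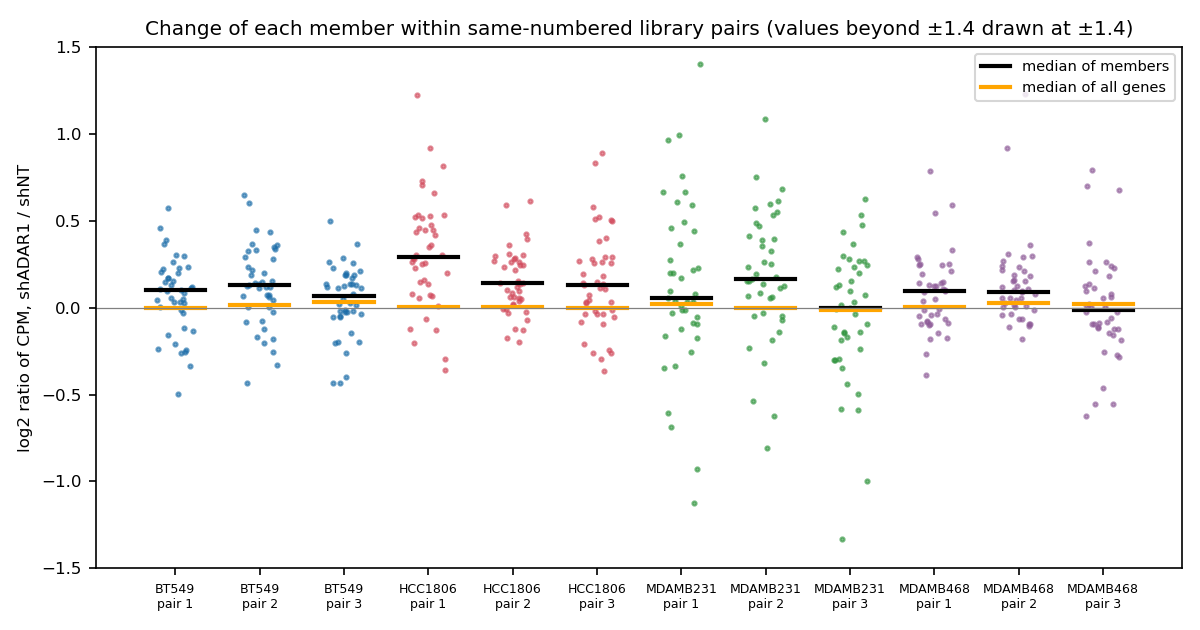
Log2 ratio of CPM, shADAR1 over shNT, for each member with at least 10 counts in both libraries, in each same-numbered pair of each line. Black bars are the members' median and orange bars that of all genes. The black bar is above the orange one in 11 of 12 pairs, and the points spread widest in MDAMB231.

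The joint test of whether the 4 line effects differ called 0 members in edgeR (7 at an unadjusted p under 0.05, as were 4.44% of all genes), where 0.0234% of all genes were called, and 0 in DESeq2, against 0.496%. With the block it called 11, against 4.69% of all genes, and with the block in 3 lines 4, ASNS, ALDH18A1, PCK2 and JDP2, against 1.45%. JDP2, a bZIP repressor related to ATF3, had the smallest blocked p. It was at 44.4, 35.1 and 42.7 CPM in HCC1806 under shADAR1 against 32.0, 29.6 and 30.3 CPM, and at 3.26, 7.92 and 5.02 against 7.11, 13.9 and 7.56 CPM in MDAMB231. Its log2 fold changes were 0.41 and -0.81 in those lines, with opposite signs (blocked joint test, edgeR adjusted p 0.00011, unblocked 0.86).

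**Figure D4:**
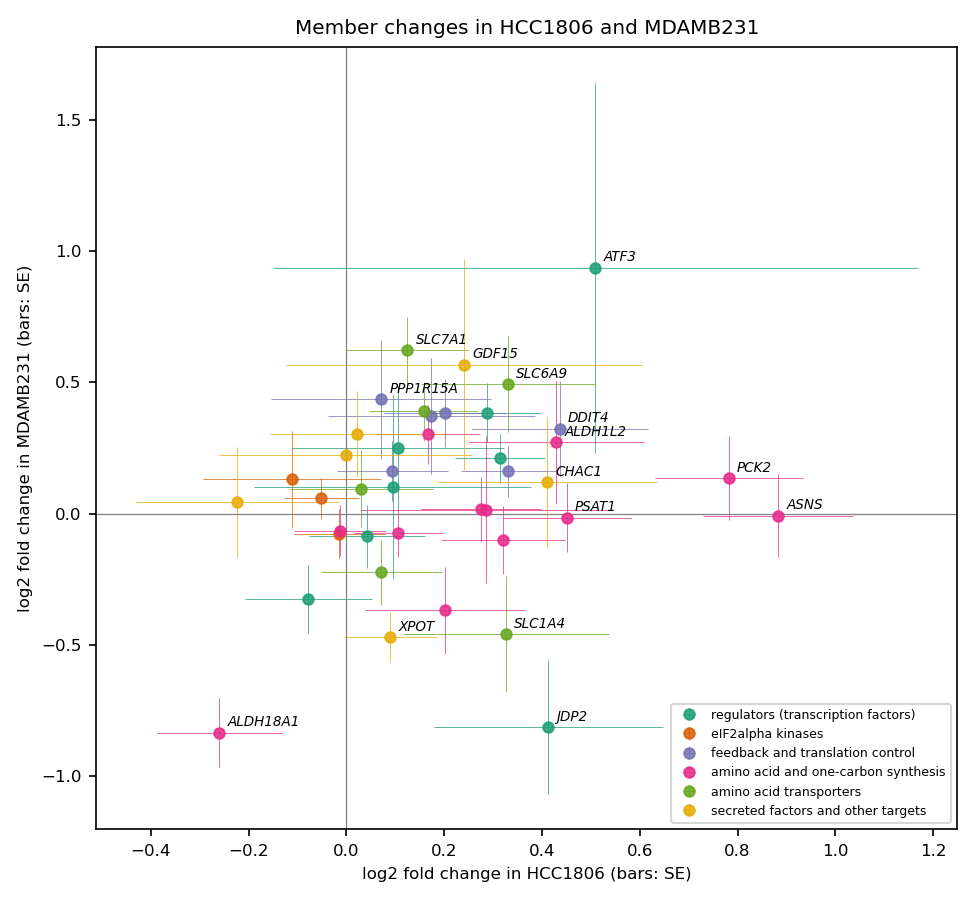
Log2 fold change in HCC1806 (x axis) and in MDAMB231 (y axis) for 41 members, coloured by role, with standard errors as bars. The lines share no library. ASNS and PCK2 lie far to the right near 0 on the y axis, SLC7A1 lies high near 0.12 on the x axis, and JDP2 and SLC1A4 are right of 0 and below it.

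Sequence at the start sites was read for a site that ATF4 and C/EBP dimers are known to use. The 8-base pattern TGATGNAA was searched on both strands, with no other motif, in windows from 250 bases before to 50 bases after each RefSeq start (GRCh38.p14). It was found in 11 of 35 members with a window (31.4%) and in 1217 of 27305 genes with one (4.46%). Members were chosen as ISR regulators and known or proposed ATF4 targets, so their share is not independent of that choice. The 7 shown were chosen after their values were seen: ASNS, CEBPG and SLC7A1 were called on average, ATF3 and SLC1A5 were higher in 12 of 12 pairs, and JDP2 and SLC1A4 had opposite signs in HCC1806 and MDAMB231. PPP1R15B, CHAC1, HERPUD1 and FGF21 also held the pattern. Each is given 5′ to 3′ along the gene's strand, with the matching bases in capitals.

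ASNS (chr7:97872439-97872506, minus strand): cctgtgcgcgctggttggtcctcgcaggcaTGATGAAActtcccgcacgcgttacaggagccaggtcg

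CEBPG (chr19:33374041-33374108, plus strand): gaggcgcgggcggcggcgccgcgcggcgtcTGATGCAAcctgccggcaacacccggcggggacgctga

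SLC7A1 (chr13:29595663-29595692, minus strand): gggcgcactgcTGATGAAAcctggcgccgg

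SLC1A5 (chr19:46784874-46784941, minus strand): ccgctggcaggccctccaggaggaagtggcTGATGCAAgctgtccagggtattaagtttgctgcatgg

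ATF3 (chr1:212565186-212565253, plus strand): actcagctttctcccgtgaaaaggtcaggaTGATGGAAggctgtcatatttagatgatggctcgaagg

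JDP2 (chr14:75427976-75428021, plus strand): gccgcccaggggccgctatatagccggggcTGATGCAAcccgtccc

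SLC1A4 (chr2:64989381-64989410, plus strand): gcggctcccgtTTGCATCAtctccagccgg

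The site began 68 bases before the start in ASNS, 42 in CEBPG, 97 in SLC1A5, 191 in ATF3, 16 in JDP2 and 7 in SLC1A4, where it is on the opposite strand. In SLC7A1 it began 8 bases into the transcript. Of the members with a window, 3 of 11 with the pattern were called on average (ASNS, CEBPG and SLC7A1) and 6 of 24 without it. Their median average log2 fold changes were 0.20 and 0.15. NUPR1, EIF2AK1, EIF4EBP1, PSPH, SHMT2, ALDH1L2, PYCR1 and GPT2 had no window.

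Levels before knockdown differed between lines for most members, as for most genes: 42 of 43 passed the joint test over the shNT groups, all but FGF21, against 85.9% of all genes tested. MDAMB231 had the lowest TMM-scaled level for 26 members and the highest for 1, and HCC1806 the highest for 18. How often each line was lowest or highest over all genes was not counted. Whether these orders are particular to the members was therefore not tested. The members' median deposited RPKM (read counts scaled by gene length and library total) was 7.25 in MDAMB231, 15.3 in BT549, 20.7 in MDAMB468 and 24.5 in HCC1806. On the same RPKM scale the most abundant member was SLC7A5 in HCC1806, at 375 ± 58 (SD, n = 3). ATF4 was at 279 ± 13.8 in MDAMB468, 136 ± 14.3 in HCC1806, 104 ± 13.4 in MDAMB231 and 96.0 ± 6.27 in BT549 (SD, n = 3). The last pair overlapped.

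The members with the widest range of means were CBS, STC2, GDF15, ALDH1L2 and NUPR1. STC2 was at 70.8 ± 27.4 RPKM in HCC1806 and 0.35 ± 0.069 in MDAMB231 (SD, n = 3). GDF15 was at 20.01 ± 12.5 RPKM in HCC1806 and 0.149 ± 0.0134 in MDAMB468 (SD, n = 3), where it rested on 8 to 17 counts. In HCC1806 its replicate 3 was the highest, at 73.96 CPM against 27.62 and 29.83. ALDH1L2 and NUPR1 were lowest in MDAMB231, at 0.258 and 0.295 RPKM, and highest in BT549 (13.1) and MDAMB468 (11.9). NUPR1 overlapped between BT549 and MDAMB468, and on TMM-scaled CPM its mean was higher in BT549 (67.8 against 61.5). PHGDH, the entry enzyme of serine synthesis, was at 86.0 ± 4.09 in MDAMB468, 33.6 ± 4.68 in BT549, 19.9 ± 3.09 in HCC1806 and 6.77 ± 0.637 in MDAMB231 (SD, n = 3), with no overlap between neighbours. ASNS was at 12.8 RPKM in MDAMB468, 12.3 in BT549, 8.63 in HCC1806 and 5.66 in MDAMB231. On TMM-scaled CPM its libraries overlapped between BT549 and MDAMB468, and BT549 had the higher mean (56.5 against 52.0). A link between the level of ASNS and its change was not tested.

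**Figure D5:**
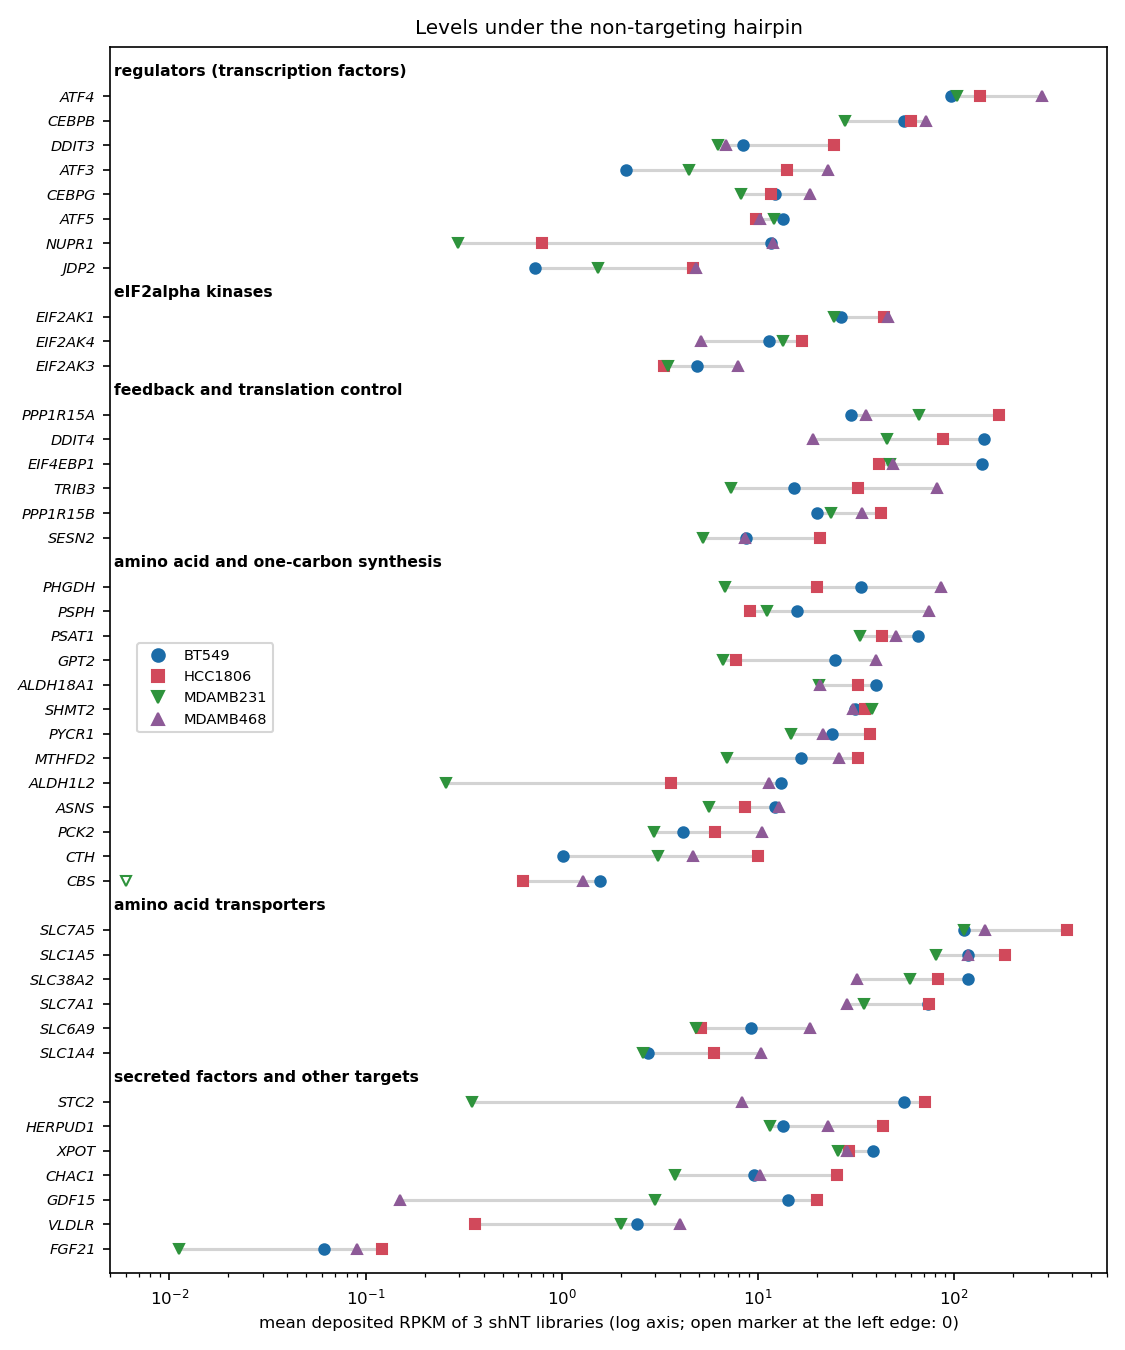
Mean deposited RPKM (log axis) of each member in the 3 shNT libraries of each line, by role. Markers are the lines, and an open marker at the left edge stands for 0. MDAMB231 is the leftmost marker for many members, and PHGDH spans from 6.77 RPKM there to 86.0 in MDAMB468.

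In RNA from whole cultures, a change in the number of cells that express a gene and a change in RNA per cell cannot be told apart. Other genes of the pathway were read from lists of their own. The first list held 12 aminoacyl-tRNA synthetases known as ATF4 targets, which load tRNAs with amino acids. Of these SARS1 rose on average (0.16, edgeR adjusted p 0.041) and IARS1 fell (-0.16, adjusted p 0.017), beside 1.26% and 1.7% of all genes. In HCC1806 11 of the 12 synthetases had positive log2 fold changes, as did 50.8% of all genes, with a median of 0.208. None was called there unblocked, and 7 had an unadjusted p under 0.05, beside 4.35% of all genes. The block called 6, AARS1, CARS1, GARS1, MARS1, SARS1 and YARS1, as higher, beside 1.47% of all genes. In MDAMB231 IARS1 fell (-0.33, edgeR adjusted p 0.023), and 5 of 12 were above 0, as were 49.7% of all genes. The block called GARS1, IARS1 and YARS1 as lower in MDAMB231, beside 6.33% of all genes. GARS1 and YARS1 were thus called in opposite directions in HCC1806 and MDAMB231. Of 8 other cytosolic synthetases none was called on average in edgeR (1 at an unadjusted p under 0.05, beside 12.8% of all genes). VARS1 was higher with the block (0.12), where 7.25% of all genes were called as higher.

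Among other ATF4-linked transporters, SLC7A11, the cystine carrier, averaged 0.32 (edgeR adjusted p 0.11) and SLC43A1, a neutral amino acid transporter, 0.24 (adjusted p 0.12). None of the 6 tested was called unblocked (on average 2 at an unadjusted p under 0.05, beside 12.8% of all genes). With the block SLC7A11, SLC38A1 and SLC43A1 were higher, beside 7.25% of all genes. The 7 mitochondrial stress genes, which include the OMA1 and DELE1 relay to HRI, had none called unblocked. On average 1 was at an unadjusted p under 0.05, beside 12.8% of all genes. DELE1 averaged -0.12 (edgeR adjusted p 0.23) and CLPP, a matrix protease subunit, 0.11 (adjusted p 0.41). With the block DELE1 was lower and CLPP higher on average, beside 5.96% and 7.25% of all genes. The block also called LONP1 and CLPP as higher in MDAMB231, beside 5.09% of all genes. It called HSPE1 as lower in HCC1806, beside 0.632%.

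Genes of the ATF6 and XBP1 branches of the unfolded protein response, which handle protein folding in the endoplasmic reticulum, were read in the same way. Of 18 such genes 2 were above 0 on average, beside 55.0% of all genes, and the median was -0.06. None was called unblocked, with 4 at an unadjusted p under 0.05, beside 12.8% of all genes. DNAJC3 and PDIA4, a co-chaperone and a disulfide isomerase, averaged -0.21 (edgeR adjusted p 0.16) and -0.14 (adjusted p 0.14). The block called DNAJC3, PDIA4, SDF2L1, CRELD2, HYOU1 and CALR as lower, beside 5.96% of all genes. By line, with no test between lines, the values were as follows. In BT549 and MDAMB231 9 of 18 were above 0 (52.7% and 49.7% of all genes), with medians of -0.006 and 0.006. In HCC1806 3 of 18 were (50.8% of all genes), with a median of -0.11. In MDAMB468 the median was -0.19 with 1 of 18 above 0, beside 52.3% of all genes. None was called in that line unblocked, and 9 had an unadjusted p under 0.05, beside 3.76% of all genes. The block, whose numbers were not read as pairs there, called HSPA5, PDIA4, MANF and HYOU1 as lower in MDAMB468. It called 1.66% of all genes there in either direction.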

How the data were processed

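RNA was sequenced in 24 libraries (8 groups of 3). The authors deposited whole-number read counts per gene per library. The deposited CPM values, per the file headers, scale counts to the library total, and the deposited RPKM values are CPM per kilobase of listed gene length. RPKM was used for levels only. Per the submitters' processing notes, bcl2fastq, STAR, Subread, featureCounts and edgeR were used. Strand use, build and annotation are not given in the sources used here, so overlapping and near-identical genes are uncertain. Of 37416 genes, 33972 received a symbol from a name table.

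Counts were tested with edgeR 4.0.16 in R 4.3.3 (filterByExpr, TMM, quasi-likelihood F test, 2-sided, 8 group coefficients, Benjamini-Hochberg over 21352 genes, threshold 0.05), and with DESeq2 1.42.0 as an alternative. The scripts were tested on simulated data. Standard errors come from the fold change and F. No 2 replicates agreed within sampling noise (lowest chi-square over its degrees of freedom 11.8).

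Replicate numbers are shared by the arms of a line. Correlations of same-numbered libraries' deviations from group means were 0.139, 0.158 and 0.25 in BT549, 0.242, 0.332 and 0.443 in HCC1806, 0.204, 0.348 and 0.149 in MDAMB231, and 0.165, 0.166 and 0.0651 in MDAMB468. They were read as pairs where each exceeded 0.1, which left out MDAMB468. Between libraries of different numbers the highest correlation was 0.0344 in BT549 and 0.0392 in MDAMB468, and all were negative in HCC1806 and MDAMB231. In MDAMB468 too, same-numbered libraries thus correlated more than the others. A block makes every line share 1 estimate of the spread within pairs.

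Members and lists were chosen with earlier results of these data known. Named with values were ADAR, ATF4, DDIT3, ATF3, the eIF2alpha kinases, members past the threshold, the 2 largest average changes per role, the 3 smallest p in the joint test, the 5 widest shNT ranges and 2 genes per other list. Others were added after their values were seen. Alternatives were other scalings, DESeq2, other count filters, the block, a line's own 6 libraries, and leaving out libraries.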

Additional observations from a re-analysis of the deposited data

Results flagged for a closer look

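For 11 members the knockdown effect differed between lines when the replicate number was a block, by a joint edgeR test of the 4 line effects with Benjamini-Hochberg adjustment. The unblocked test called 0 of them, and with the block in 3 lines only ASNS, ALDH18A1, PCK2 and JDP2 passed. The adjusted p was 0.000109 for JDP2, 0.00159 for ASNS, 0.00332 for PCK2 and 0.00153 for ALDH18A1. It was 0.00202 for GPT2, 0.00397 for SLC1A4, 0.00691 for XPOT and 0.0151 for SLC7A1. The serine and folate enzymes PSAT1, PHGDH and ALDH1L2 gave 0.0259, 0.021 and 0.0194. HCC1806 had the highest log2 fold change of the 4 lines for each of the 11 but SLC7A1, which was highest in MDAMB231. For ALDH18A1, which fell in each line, this was the smallest fall, -0.26 beside -0.28 in MDAMB468 and -0.83 in MDAMB231. Of the 11, 7 were amino acid or one-carbon synthesis genes.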

How the results depend on the processing

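No called value changed sign under the alternatives run. The number of members called depended most on the replicate block (in all lines, or in 3 lines, the latter chosen after the data were seen). The counts with the block and with the block in 3 lines were 9 and 3 in BT549, 13 and 5 in HCC1806, 17 and 12 in MDAMB231, 25 and 18 on average, and 11 and 4 for differences between lines. In MDAMB468, where the numbers were not read as pairs, the block gave 4. DESeq2 gave 1 in BT549, 2 in HCC1806 and 5 in MDAMB231. BT549 also had 1 with at least 10 counts in every library and 1 with only its own 6 libraries. HCC1806 had 2 with no filter, 0 with its own 6 libraries, where ADAR was -1.60 without a call, and 0 without replicate 3 of both arms. That last setting was added after the data were seen. Leaving out 1 library gave 0 to 2 members in HCC1806, 1 to 6 in MDAMB231, and 6 to 13 on average. On average MTHFD2, ASNS, EIF4EBP1 and PCK2 were lost in 17, 15, 20 and 16 of 24 such fits, and DDIT4, SLC6A9, SLC7A1, CEBPB, CEBPG and ALDH18A1 in 0. PCK2 was also lost with RLE and upper-quartile scaling. The cause of these moves was not tested, except that leaving out libraries leaves fewer samples. Low counts limit CBS, GDF15 and FGF21, each under 10 in some libraries.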
